A study of Mus musculus with 194 samples.

Results

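A set of 10 genes that mark the cells of blood vessels was followed as RNA levels through 5 mouse brain structures, 3 histories of cocaine and 4 times. They are Cldn5, Ly6a, Ly6c1, Flt1, Pecam1, Esam, Slco1a4 and Itm2a, which mark endothelial cells in brain tissue, and Acta2 and Mgp, which mark mural cells and the walls of larger vessels. These 10 of the 19363 genes counted were chosen by name, after several of them had been seen to differ between the 0 hr mice of different histories. The values behind that choice are given below as a description, without a test.

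RNA came from 400 µm slices of male C57BL/6OLAHSD mice, from which 5 structures were dissected. These were the dorsal striatum (DS) and nucleus accumbens (NAc), the amygdala (Amy), the lateral hypothalamus (LH) and the limbic cortex (LCtx). Acute mice received 1 dose of cocaine at 20 mg/kg, and their 0 hr group was naive. Repeated mice, labelled chronic, received 5 daily doses, and their 0 hr group was taken 24 hr after the 4th dose. Challenge mice received the same 5 daily doses and then a further dose after 21 days of abstinence, and their 0 hr group was abstinent. Mice arrived at 6 to 7 weeks of age, were habituated and given saline, and then entered the cocaine schedule, so challenge mice were older than the others when RNA was taken. Age and history cannot be told apart for them. The other mice of each experience were taken 1, 2 or 4 hr after the last dose. The 0 hr mice came straight from the home cage, and no group received saline in place of cocaine. Cocaine thus cannot be told apart from injection and handling in the time courses.

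There were 166 samples, 28 of which were sequenced in 2 runs, and a library held 1193306 to 10367769 counts of unique molecules (median 3296650). All acute mice belonged to 1 cohort, exp20, and all challenge mice to another, exp18. Repeated mice belonged to cohort exp17, and in the DS also to exp16. Cohort and cocaine history therefore cannot be told apart in any comparison of histories. All acute libraries of a structure that entered the time courses came from 1 run. The same mice gave several structures, so the structures are not independent: the 2 mice at 1 hr after acute cocaine in the Amy, for instance, are the 2 of the LH.

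Blood vessels of the brain are lined by endothelial cells joined by tight junctions, which with selective transporters form the blood-brain barrier. Mural cells, the pericytes of capillaries and the smooth muscle cells of arterioles, sit around the endothelial tube. In a dissected block these cells are a minority among neurons and glia, and the amount of their RNA varies with the vessels and meninges caught in the block as well as with what each cell transcribes. In bulk tissue, fewer cells of a type and less RNA per cell cannot be told apart. Genes that reported only how much vessel a block held would move by like proportions from block to block.

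The genes were present in every library and differed in how well they were counted. The median count per library was 331 for Ly6c1 and 196 for Ly6a, small surface proteins of the Ly6 family, and 243.5 for Itm2a, a membrane protein that is also found outside endothelium. It was 34 for Esam and 28 for Pecam1, 2 adhesion molecules of endothelial junctions, and 25 for Acta2, the actin of smooth muscle. Values below are CPM, the counts of a gene scaled to the total of its library. Since reads came from 3′ ends, levels are compared between samples and not between genes. Ly6a (chr15:74994877-74998031) and Ly6c1 (chr15:75044018-75048830) are near relatives, both on the minus strand of GRCm38. Of the 50-base words in the last 500 bases of their transcripts, 8.13% for Ly6a and 29.2% for Ly6c1 also occur in other genes, Ly6c2 and Ly6i among them. Counts of these 2 genes may therefore hold reads of each other or of those relatives. No member has exons that overlap another gene in GENCODE M21, and 7 of the 10 share no such word.

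The RefSeq table of promoters, the 250 bases before and 50 after a start site on GRCm38.p6, holds entries for 6 of the 10 genes. The core of the sites bound by ETS factors, a family active in endothelial genes, is GGAA, read as TTCC on the other strand. Promoters are shown for 3 endothelial genes whose levels moved differently in these mice and for the smooth muscle actin, with GGAA and TTCC in capitals. Ly6c1 has 2 entries, and the first is printed.
Ly6c1, chr15:75048788-75049087, minus strand: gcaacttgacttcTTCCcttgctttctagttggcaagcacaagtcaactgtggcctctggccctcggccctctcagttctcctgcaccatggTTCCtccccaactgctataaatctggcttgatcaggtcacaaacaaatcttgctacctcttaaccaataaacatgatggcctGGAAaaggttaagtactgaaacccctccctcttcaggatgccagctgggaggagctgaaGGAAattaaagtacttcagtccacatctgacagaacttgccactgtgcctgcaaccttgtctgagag
Flt1, chr5:147725962-147726261, minus strand: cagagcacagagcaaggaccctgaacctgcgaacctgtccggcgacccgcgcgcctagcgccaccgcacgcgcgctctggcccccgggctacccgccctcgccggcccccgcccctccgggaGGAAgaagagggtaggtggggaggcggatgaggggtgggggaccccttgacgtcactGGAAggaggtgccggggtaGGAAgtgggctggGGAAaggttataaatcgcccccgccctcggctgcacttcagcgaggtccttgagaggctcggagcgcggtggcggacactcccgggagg
Cldn5, chr16:18776597-18776896, plus strand: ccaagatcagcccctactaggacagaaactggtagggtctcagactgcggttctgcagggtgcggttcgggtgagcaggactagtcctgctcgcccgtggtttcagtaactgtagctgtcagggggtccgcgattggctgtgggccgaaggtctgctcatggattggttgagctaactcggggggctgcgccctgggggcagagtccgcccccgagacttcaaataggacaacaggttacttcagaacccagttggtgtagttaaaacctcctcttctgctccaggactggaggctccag
Acta2, chr19:34255324-34255623, minus strand: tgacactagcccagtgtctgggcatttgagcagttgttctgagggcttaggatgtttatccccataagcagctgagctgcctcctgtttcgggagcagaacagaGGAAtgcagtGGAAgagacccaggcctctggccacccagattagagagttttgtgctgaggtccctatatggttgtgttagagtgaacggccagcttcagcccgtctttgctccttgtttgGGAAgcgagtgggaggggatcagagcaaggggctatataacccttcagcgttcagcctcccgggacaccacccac
The 4 letters occurred 4 times in the windows of Ly6c1 and Flt1, 3 times in that of Acta2 and 0 times in that of Cldn5. The 2nd window of Ly6c1, not printed, held 8. They are common: 31532 of 32851 promoters (96.0%) held at least 1 match, with a median of 3. These matches describe the letters of the windows only.

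The structures were compared in challenge mice, whose LCtx, NAc, Amy and LH libraries shared 2 runs. Among these structures the LCtx stood apart in Acta2 and Mgp and had the highest median of Cldn5. The LH had the highest medians of Flt1, Ly6a and Slco1a4 and the NAc that of Itm2a, though not every such difference passed the test. The medians of Ly6a in the LH and LCtx were close (73.8 and 69.4 CPM). Acta2 ran from 15.2 to 57.2 CPM in the LCtx (median 21.3, n = 13), from 1.46 to 8.54 in the NAc (median 5.42, n = 14), from 2.37 to 10.8 in the Amy (median 6.06, n = 15) and from 3.61 to 13.95 in the LH (median 8.27, n = 7). Mgp, matrix Gla protein, which keeps arteries from calcifying, ran from 62.5 to 229 CPM in the LCtx (median 76.0) and from 23.1 to 57.0 in the LH (median 37.7). No LCtx mouse overlapped another structure for either gene. In edgeR's quasi-likelihood test with time and run as terms, Acta2 was 4.46-fold higher in the LCtx than in the NAc (log2FC 2.16, SE 0.19, adjusted p = 1.46e-16), and Mgp 2.98-fold (1.57, SE 0.13).

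Cldn5, the claudin that seals endothelial tight junctions, ran from 29.7 to 69.2 CPM in the LCtx (median 34.9), from 16.7 to 37.0 in the NAc (median 24.1), from 13.03 to 27.6 in the Amy (median 21.4) and from 16.1 to 38.6 in the LH (median 26.8). The LCtx mice lay above all Amy mice and overlapped those of the NAc and LH. The log2FC of the LCtx was 0.90 (SE 0.09) against the Amy, 0.67 (SE 0.10) against the NAc and 0.57 (SE 0.11) against the LH, and each passed the test. Flt1, a receptor for VEGF, ran from 25.5 to 36.5 CPM in the LH (median 28.8) and from 9.61 to 24.6 in the NAc (median 17.3), without overlap. It was 0.66 lower in the NAc than in the LH on the log2 scale (SE 0.11, adjusted p = 1.34e-07, edgeR). Slco1a4, a transporter of organic anions at the blood-brain barrier, had medians of 31.8 CPM in the LH and 29.8 in the Amy against 22.7 in the NAc and 22.0 in the LCtx. It differed between each of the first 2 structures and each of the last 2, and its log2FC between the Amy and the LH was -0.25 (SE 0.11, adjusted p = 0.0506, edgeR). Itm2a ran from 64.6 to 89.9 CPM in the NAc (median 76.5), whereas the medians of the LCtx, Amy and LH lay between 56.6 and 60.3. The DS shared no run with these structures and was not tested against them. Its challenge mice (n = 15) had medians of 74.8 CPM for Itm2a and 47.4 for Slco1a4, so neither high level was particular to the NAc or LH.

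**Figure D1:**
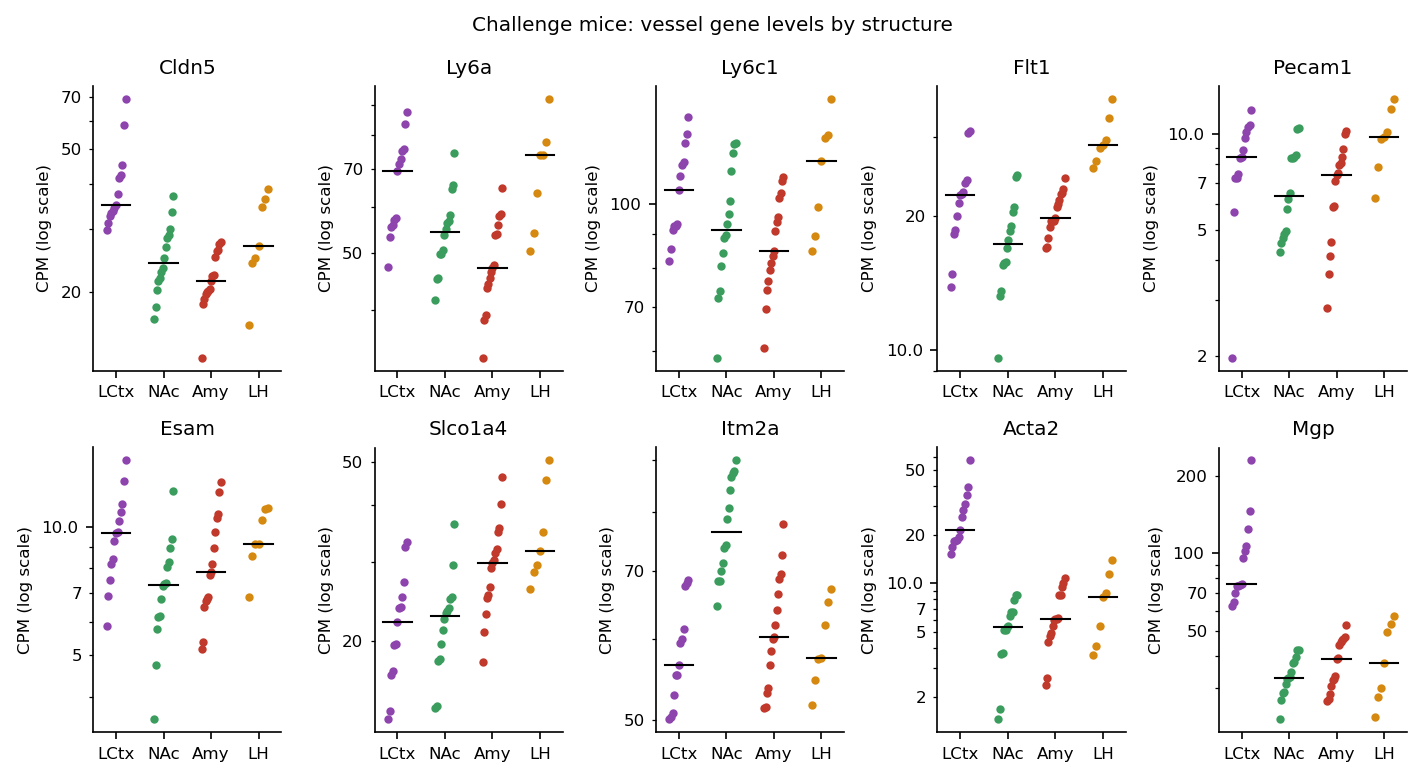
Levels of the 10 genes in challenge mice, with CPM on a log scale on the y axis and the structure on the x axis. Each point is 1 mouse, points are sorted within a structure, and lines are medians. Acta2 and Mgp of the LCtx lie above all mice of the other 3 structures, and Itm2a has its highest median in the NAc.

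A gene was called here, as in all comparisons below, at an adjusted p (Benjamini-Hochberg over all genes tested) under 0.05 and a fold change over 1.2. Between the LCtx and NAc, 6 of the 10 genes were higher and 1 lower, where 43.2% of all 12657 genes differed. Between the LCtx and Amy, 5 were higher and 1 lower (35.7% of all genes), and between the LCtx and LH 3 were higher and 2 lower (56.3%). Between the NAc and Amy the numbers were 1 and 1 (43.5%), between the NAc and LH 1 and 4 (56%), and between the Amy and LH 0 and 5 (44.4%). The shares of the 10 genes called lay on both sides of these backgrounds. The genes did not keep 1 order of structures: Slco1a4 was lower in the LCtx than in the LH by 0.63 on the log2 scale (SE 0.12), whereas Cldn5 was higher. With the mouse as a block, Ly6a (-0.20) and Pecam1 (-0.44) of the NAc and LH and Cldn5 (-0.22) of the Amy and LH were no longer called. Itm2a was the 1 gene called lower in the LCtx than in the NAc (log2FC -0.40, SE 0.07).

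Genes of fibroblasts and meninges moved with the LCtx as well. Of a list of 14, 13 were higher in the LCtx than in the NAc, 14 than in the Amy and 13 than in the LH, with median log2FC of 1.49, 1.80 and 1.56. The part of the meninges in the levels of Acta2 and Mgp was not tested. The excess of Acta2 in the LCtx was not present in all histories. It ran from 2.70 to 11.7 CPM in the 8 acute LCtx libraries, from 15.1 to 36.4 in the 7 repeated ones and from 15.2 to 57.2 in the 13 challenge ones. The acute libraries thus lay below all others of this structure, and overlapped the 1.80 to 8.43 CPM of the acute NAc. They stood apart in blood cells too: the summed level of 10 blood genes was 8787 to 14824 CPM in the acute LCtx, against 353 to 1226 CPM in the other LCtx libraries and at most 1405 CPM in any other structure. Among LCtx libraries the cohort, the run and the history of acute mice cannot be told apart.

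The contrasts of structures were repeated in 2 other sets of mice. In run0222, which held repeated mice, 7 of the 10 genes were higher in the LCtx than in the NAc and 0 lower (40.9% of all genes called), among them Acta2 (log2FC 1.67, SE 0.16), Mgp (1.51, SE 0.10) and Cldn5 (0.74, SE 0.13). Slco1a4 was higher in the LCtx there (0.29, SE 0.10), where it had been at -0.05 (SE 0.11) in challenge mice. Itm2a, called lower in the LCtx than in the NAc of challenge mice, was not called lower in run0222, where the lowest value of the 10 genes was -0.12. In run0255, which held acute and repeated mice, 0 of the 10 genes were higher and 4 lower in the Amy than in the LH (44.7% called). These were Ly6a (-0.36, SE 0.08), Flt1 (-0.27, SE 0.09), Acta2 (-0.57, SE 0.22) and Mgp (-0.27, SE 0.09). Both structures came from the same mice, and with the mouse as a block Mgp (-0.26) was no longer called. DESeq2 did not call Acta2 (-0.44, adjusted p = 0.145).

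The time course after a 1st dose of cocaine was examined next. Ly6a and Ly6c1 were higher at 2 and 4 hr than at 1 hr after acute cocaine in the DS and Amy, and Flt1 in the DS. Other endothelial genes of the group did not pass the test, and the smooth muscle actin was near its 1 hr level in the DS. In the DS, Ly6a was at 45.4, 47.2, 59.4 and 56.1 CPM in the naive mice, 49.96, 51.0, 52.3 and 59.6 at 1 hr, 85.1, 79.6, 75.7 and 79.5 at 2 hr and 93.3, 67.9, 74.8 and 97.1 at 4 hr. All 8 mice at 2 and 4 hr lay above all 4 mice at 1 hr. The naive mice were part of the choice of genes, and their values are given as a description. Ly6c1 in the DS was at 90.7, 96.2, 91.7 and 100.0 CPM at 1 hr, 129, 128, 162 and 111 at 2 hr and 143, 152, 144 and 165 at 4 hr, again without overlap between 1 hr and later. Flt1 ran from 13.6 to 20.97 CPM at 1 hr (median 17.2) and from 21.1 to 39.3 at 2 and 4 hr (median 30.9), and these ranges met without overlapping.

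In the Amy, Ly6a was at 39.8 and 32.1 CPM in the naive mice, 30.8 and 34.9 at 1 hr, 58.9 and 64.8 at 2 hr and 61.8 and 59.0 at 4 hr. Ly6c1 was at 83.8 and 70.9 CPM, 67.0 and 62.6, 109 and 116, and 120 and 125 at the same times. Both genes were thus higher in all 4 mice at 2 and 4 hr than in either mouse at 1 hr. In the LCtx, Ly6a was at 36.0 and 38.6 CPM at 1 hr and at 58.1 and 63.0 at 2 hr, and Ly6c1 at 53.2 and 70.5 and then at 100.3 and 113. A single LCtx mouse at 4 hr, left out of the tests, had 73.7 CPM of Ly6a and 119.9 of Ly6c1. The 3 naive LCtx mice had 38.0 to 45.7 CPM of Ly6a and 79.4 to 96.2 of Ly6c1, so that Ly6c1 was lower at 1 hr than in any of them. In the LH, Ly6c1 was at 100.3 and 103.9 CPM in the naive mice, 77.8 and 87.5 at 1 hr and between 111 and 135 in the 4 later mice, so here too the level at 1 hr lay below that of naive mice, and a contrast with 1 hr is larger than 1 with naive mice. Ly6a of the LH overlapped between 1 hr and later. In the NAc, Ly6c1 ran from 95.5 to 114 CPM at 1 hr and from 109.6 to 129.9 later, with overlap.

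**Figure D2:**
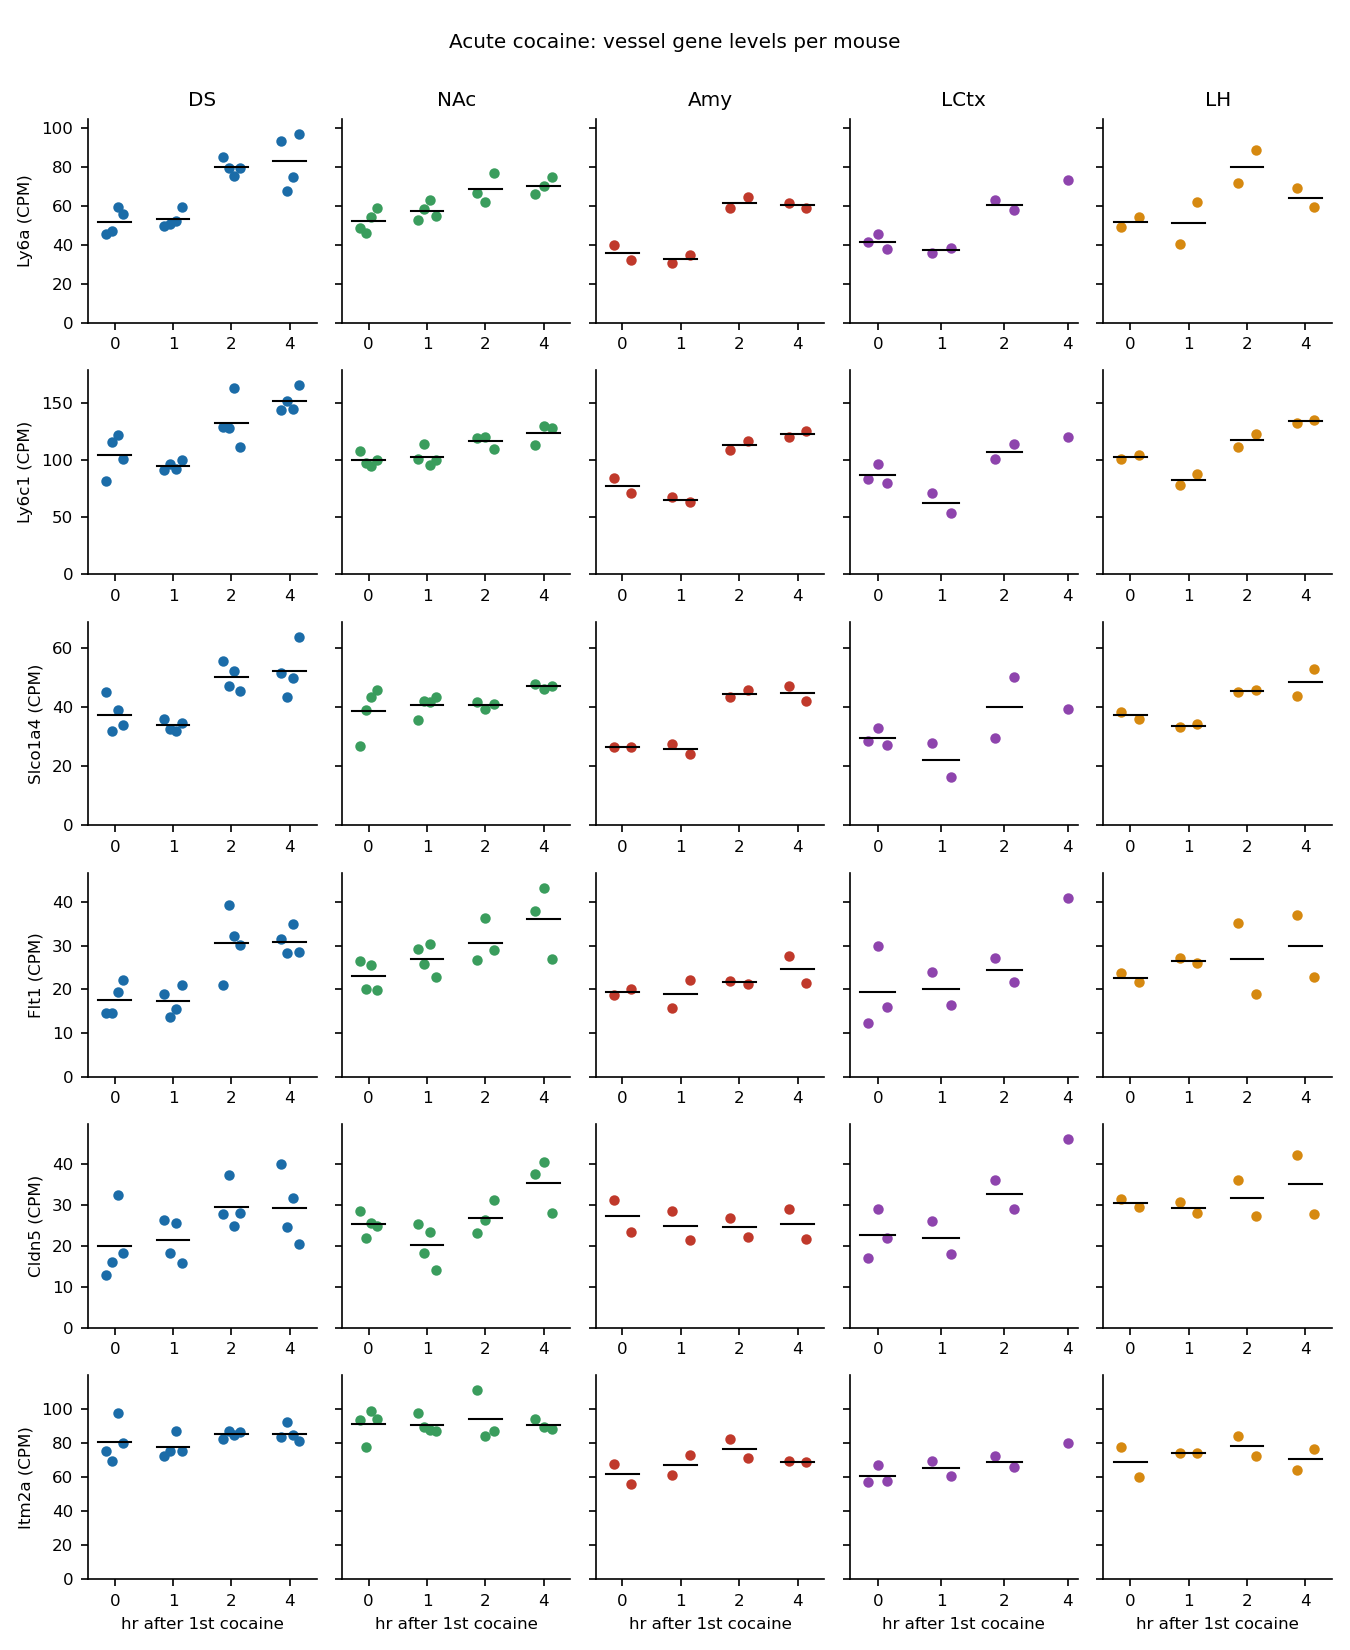
Levels in acute mice by structure, with CPM on the y axis and hr after the 1st dose on the x axis, where 0 is naive. Each point is 1 mouse and lines are group means. Ly6a and Ly6c1 are higher at 2 and 4 hr than at 1 hr in every mouse of the DS and Amy.

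The test over all 4 times in each structure compared 1, 2 and 4 hr with the 0 hr mice. The naive mice also entered the comparison by which the genes were chosen, so the calls of this test are a description, and nothing is read from them. After acute cocaine it called 3 of the 10 genes higher (Ly6a, Ly6c1 and Flt1) and 1 lower (Acta2) in the DS, where 2.62% of 12918 genes were called by edgeR. DESeq2 did not call Acta2 there. In the Amy edgeR called Ly6a and Ly6c1 (0.0853% of 12890 genes called), and DESeq2 called Slco1a4 as well. In these tests the fold threshold applies to the largest change at a single time, not to the mean. In the LCtx it called Ly6c1 (0.3% called) with a mean log2FC against naive mice of -0.10, since this gene was below the naive level at 1 hr and above it at 2 hr. No member was called by edgeR in the NAc (0.185%) or LH (0.0529%), though DESeq2 called Ly6c1 of the LH, and the smallest unadjusted p-values were 0.00182 for Cldn5 and 0.000164 for Ly6c1. Without the filter on low counts edgeR also called Cldn5 in the NAc (adjusted p = 0.0322) and Ly6c1, Ly6a, Acta2 and Mgp in the LH, and with the run as a term Ly6c1 in the LH (adjusted p = 0.0124). The call of Acta2 in the DS rested on 1 naive mouse.

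That mouse, the 1st naive replicate of the DS, had 57.3 CPM of Acta2 against 4.86, 5.60 and 4.90 in the other naive mice. It also had 396 CPM of the fibroblast and meninges list, against 83.3 to 121 in the others, and 217 CPM of the smooth muscle list, against 93.7 to 107. The log2FC of Acta2 over 1 to 4 hr was -1.53 (SE 0.34) with this mouse and 0.30 without it, where it was not called. Ly6a moved from 0.43 to 0.35 on leaving the mouse out and was then not called either.

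A contrast of 2 and 4 hr against 1 hr, added after these values had been seen, leaves the naive mice out. In the DS it called Ly6a (log2FC 0.58, SE 0.16, adjusted p = 0.0359), Ly6c1 (0.53, SE 0.12, adjusted p = 0.00820) and Flt1 (0.80, SE 0.19, adjusted p = 0.0110), all by edgeR, where 1.58% of genes were called. Of the 10 genes 9 were above 0, with a median of 0.45 against -0.00052 for all genes. Slco1a4, at 32.1 to 36.1 CPM at 1 hr and 43.3 to 63.9 later, did not overlap but missed the threshold (0.55, SE 0.16, adjusted p = 0.0621, edgeR). Mgp did not overlap either, at 23.2 to 31.9 and 32.4 to 40.2 CPM (0.37, SE 0.18). Cldn5 overlapped (0.39, SE 0.21), and Acta2, Itm2a and Esam were at -0.05, 0.10 and 0.08. In the Amy, Ly6a (0.88, SE 0.17, adjusted p = 0.00574) and Ly6c1 (0.84, SE 0.15, adjusted p = 0.00399) were 2 of only 15 genes called by edgeR, 0.116% of all. Cldn5 was at 0.00 there (SE 0.19), at 21.4 and 28.4 CPM at 1 hr and 21.6 to 28.8 later.

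In the LCtx, Ly6c1 was called (log2FC 0.78, SE 0.17, adjusted p = 0.0337, edgeR; 0.139% of genes called) and Ly6a was not (0.71, SE 0.19, adjusted p = 0.209, edgeR). In the LH, where 0.0378% of genes were called, Ly6c1 had the 6th smallest p-value of 13243 genes and missed the threshold (0.58, SE 0.12, adjusted p = 0.0563, edgeR). In the NAc, 0 of the 10 genes were called (0.116%) and the largest change was that of Cldn5 (0.59, SE 0.16, adjusted p = 0.359, edgeR). The 10 genes had medians of 0.62 (LCtx), 0.47 (Amy), 0.27 (NAc) and 0.23 (LH), whereas all genes had medians within 0.01 of 0. That of the LCtx rested on 2 mice at 1 hr and 2 later, and fell on leaving out a replicate number, with the range given in the last section. Slco1a4 was higher in every mouse after 1 hr than in any at 1 hr in the Amy, LCtx and LH as well, and it was not called in any of them. With no filter on low counts, an alternative added after seeing the data, edgeR called more of the 10 genes: Slco1a4 in the DS, Amy and LCtx, Mgp in the Amy and LCtx, Ly6a in the LCtx, Ly6c1 in the LH and Cldn5 in the NAc (adjusted p = 0.0367).

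Leaving out 1 replicate number at a time kept these called genes above 0, yet not always called. In the DS, Ly6c1 lost its call on 1 of 5 occasions (highest adjusted p = 0.0731), Flt1 on 2 (0.154) and Ly6a on 3 (0.313), all by edgeR. The refit without replicate 5 left out no acute mouse, since only a repeated mouse bore that number. DESeq2 did not call Ly6a in the DS (0.57, adjusted p = 0.0586). In the Amy, with 2 mice at each time, both genes lost their calls without either acute mouse number, and in the LCtx Ly6c1 did so too. The LH could not be refitted with a single mouse per time.

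Of 34 other endothelial genes tested in the DS, 5 were called higher at 2 and 4 hr and 0 lower, with a median log2FC of 0.41. The largest changes were those of Sox18, a transcription factor of endothelial cells (1.33), Podxl, a sialomucin of their surface (0.90), and Adgrf5 (0.85). The drug transporter Abcb1a (0.71) and the glucose transporter Slc2a1 (0.59) were the others. Of 11 pericyte genes, Abcc9, a subunit of potassium channels, was called (0.84). Of 8 smooth muscle and 11 fibroblast and meninges genes, 0 were called. In the LCtx, Ramp2, part of the adrenomedullin receptor, was the only other endothelial gene called (1.21), and in the Amy, NAc and LH 0 of 34 were. The summed level of the blood list overlapped between 1 hr and later in all 5 structures. That of the other endothelial genes was higher without overlap at 2 and 4 hr in the DS (1270 to 1320 CPM at 1 hr, 1361 to 1506 later), the Amy (1629 to 1706 and 1750 to 1868) and the LCtx (1781 to 1920 and 2071 to 2119). The summed level of the neuron list was also higher without overlap in the DS (4549 to 4661 and 4671 to 5518 CPM), the Amy (5772 to 6240 and 6526 to 6678) and the LH (5616 to 5788 and 5799 to 5911). The smooth muscle list did so in the Amy and LCtx and the pericyte list in the LCtx, whereas the choroid plexus list was lower in the LH (546 to 602 and 444.5 to 514 CPM). The part of these cells in the values of the 10 genes was not tested.

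The rise after acute cocaine was also read in the 2nd libraries of 8 of the DS mice, sequenced in run0194. There Ly6a was at 38.6 and 35.9 CPM at 1 hr, 50.2 and 51.6 at 2 hr and 60.6 and 55.6 at 4 hr. Ly6c1 was at 48.6 and 73.1 CPM, 76.6 and 72.6, and 94.7 and 96.5. Ly6a again did not overlap, and for Ly6c1 1 mouse at 2 hr lay below 1 at 1 hr. These are the same animals and no new replicates.

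After repeated or challenge cocaine, with the LCtx of repeated mice read at 2 hr only because its single mouse at 4 hr was left out, 0 of the 10 genes were called at 2 and 4 hr against 1 hr in any structure, against at most 0.356% of all genes. After repeated cocaine the shares of all genes called were 0.356% for the DS, 0.0154% for the NAc, 0.0151% for the LH and 0% for the Amy and LCtx. After challenge cocaine they were 0.348%, 0.0848%, 0.0453%, 0.031% and 0.0693% in the same order. In the DS, the log2FC of Ly6c1 was 0.09 after repeated and -0.10 after challenge cocaine, and that of Ly6a 0.11 and -0.19. Mice at 1 hr and later nevertheless did not overlap for some genes after repeated cocaine, with 2 mice at 1 hr outside the DS. In the Amy this held for Ly6a (44.5 and 51.5 CPM at 1 hr, 61.9 to 75.0 later), Ly6c1 (88.7 and 106 CPM, 112 to 141 later), Cldn5, Esam and Mgp, all higher later. It held for Ly6a in the NAc (44.7 and 50.6 CPM, 51.6 to 63.9 later) and for Ly6c1 in the LH (109 and 139 CPM, 141 to 160 later) as well. In the NAc it also held for Esam and Acta2, and in the LCtx, with 2 mice on each side, for Ly6c1 and Esam, which were higher at 2 hr, and for Slco1a4, Acta2 and Mgp, which were lower. After challenge cocaine it held for Esam of the LH alone (8.57 and 9.14 CPM at 1 hr, 9.15 to 11.1 later). With no filter on low counts, edgeR called Mgp lower at 2 hr in the LCtx (-0.64, adjusted p = 0.0267) and Acta2 higher in the LH (1.03, adjusted p = 0.0153) after repeated cocaine, and 0 of the 10 genes after challenge. The smallest unadjusted p-values were 0.00224 for Ly6a in the Amy after repeated cocaine (0.52) and 0.00330 for Itm2a in the Amy after challenge. The tests over all 4 times, whose 0 hr mice were part of the choice of genes, called 0 of the 10 genes in any structure by edgeR, whereas DESeq2 called Ly6c1 in the NAc and Cldn5 in the LCtx after challenge. By edgeR without the filter these 2 were called as well, with Mgp of the LCtx and Ly6c1 and Mgp of the LH after challenge and Acta2 of the LH after repeated cocaine, the last also with the run as a term (adjusted p = 0.0321). After repeated cocaine they called 0.48% of all genes for the DS, 0.0463% for the NAc, 0.0233% for the Amy, 0.0462% for the LCtx and 0.0302% for the LH. After challenge cocaine the shares were 0.673%, 0.0925%, 0.109%, 0.0924% and 0%. The smallest unadjusted p-values of the 10 genes in these tests were 0.000122 for Acta2 in the LH after repeated cocaine and 0.00102 for Cldn5 in the LCtx after challenge. The difference between acute and other mice was tested itself, and 0 of the 10 genes passed in any structure, against 0.00755% and 0.0151% of all genes in the LH and 0% elsewhere. Its smallest p-value was that of Ly6c1 in the Amy, with a difference of 0.77 on the log2 scale between acute and challenge cocaine (unadjusted p = 0.000136, adjusted p = 0.863, edgeR). With no filter on low counts, however, edgeR called the difference between acute and challenge cocaine for Ly6a (0.76, adjusted p = 0.0116), Ly6c1 (0.62, adjusted p = 0.0118), Flt1 and Mgp of the DS, Ly6c1 of the Amy (0.77, adjusted p = 0.000603), and Ly6c1 and Mgp of the LCtx. It also called the difference between acute and repeated cocaine for Mgp of the LCtx. Whether the rise after acute cocaine differed from the other histories thus depended on the filter.

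Histories were compared within single sequencing runs, which held acute, repeated and challenge libraries of the DS, and acute and repeated ones of the Amy and LH. The 0 hr mice, whose values led to the choice of genes, are described first. Ly6a in the DS was at 41.7 and 38.4 CPM in naive mice, 123 and 109 after repeated cocaine and 64.8 and 69.3 in abstinent mice. In the Amy it was at 39.8 and 32.1 CPM in naive mice and 79.4 and 73.6 after repeated cocaine, and in the LH at 49.1 and 54.4 and at 113 and 87.9. The log2 differences between repeated and naive mice were 1.53, 1.12 and 1.02 for Ly6a, 1.24, 0.84 and 0.45 for Ly6c1 and 0.71, 0.88 and 0.60 for Cldn5, in the order DS, Amy and LH. Acta2 was at 1.44, -0.12 and -0.26, above 0 in the DS alone.

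Mice at 1 to 4 hr were not in that comparison and were tested, but they shared its cohorts and runs, and the genes were chosen with earlier results of these data known. In the DS, Ly6c1 ran from 48.6 to 96.5 CPM in 6 acute mice (median 74.8) and from 101 to 161 in 6 repeated mice (median 135). Ly6a ran from 35.9 to 60.6 CPM in acute mice (median 50.9) and from 58.1 to 89.1 in repeated mice (median 73.8). The 2 groups did not overlap for Ly6c1 and overlapped slightly for Ly6a. Both genes were called higher in repeated mice by edgeR (Ly6c1 log2FC 0.83, SE 0.12, adjusted p = 5.8e-07; Ly6a 0.59, SE 0.12, adjusted p = 0.00056), where 9.28% of 12297 genes were called. The median of the 10 genes was 0.35 and 8 were above 0, but Slco1a4 (-0.11, SE 0.14) and Flt1 (-0.05, SE 0.17) were not. Other lists moved beside them. The summed level of the oligodendrocyte list was 12081 to 13359 CPM in acute and 9342 to 11457 in repeated mice, with 2 of 8 genes called lower. That of the fibroblast and meninges list was 93.3 to 127 CPM in acute and 136 to 169 in repeated mice, and that of the other endothelial genes 995 to 1126 and 1229 to 1504. None of the 3 overlapped between the groups, and their part in the values of the 10 genes was not tested.

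In the Amy, 4 of the 10 genes were higher in repeated mice and 0 lower, where 8.41% of genes were called. Cldn5 ran from 21.4 to 28.8 CPM in acute mice (median 24.5) and from 25.7 to 43.1 in repeated mice (median 35.1), with a log2FC of 0.48 (SE 0.11, adjusted p = 0.0036, edgeR). Mgp (0.41, SE 0.09), Ly6a (0.34, SE 0.08) and Ly6c1 (0.31, SE 0.07) were also called, and each overlapped between the groups. With Cldn5 as a covariate, Ly6a (0.30, adjusted p = 0.237), Ly6c1 (0.18, adjusted p = 0.439) and Mgp (0.50, adjusted p = 0.0609) were no longer called by edgeR. The median of the 10 genes was 0.15. The summed level of the other endothelial genes was 1629 to 1868 CPM in acute and 1938 to 2074 in repeated mice of the Amy, without overlap. In the LH, Ly6c1 was the 1 gene called (0.39, SE 0.06, adjusted p = 5.7e-05, edgeR; 3.04% of genes called), from 77.8 to 135 CPM in acute and 109 to 160 in repeated mice, and the median was 0.28. Without the filter on low counts edgeR also called Ly6a (0.27, adjusted p = 0.0123), Acta2 (0.87) and Mgp (0.34, adjusted p = 0.00327) there. The difference between the Amy and LH was called for 0 of the 10 genes (0.427% of all).

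Of the 2 mural genes, Mgp was called in the Amy, as above. Acta2 was at 0.57 (SE 0.39) in the DS, 0.00 (SE 0.18) in the Amy and 0.87 (SE 0.35) in the LH and was not called. The value of the LH moved from 0.11 to 1.36 on leaving out 1 mouse at a time. The lowest was without a repeated mouse at 2 hr with 76.9 CPM, and the highest, which was called, without an acute mouse at 2 hr with 37.8 CPM. Acta2 was also called there without the other repeated mouse at 2 hr. Tagln, a second marker of smooth muscle, was called in all 3 (log2FC 1.61 for the DS, 0.56 for the Amy and 1.00 for the LH). In the Amy it was joined by the myosin regulators Mylk (0.51) and Myl9 (0.46) and by Crip1 (0.38), so that 4 of 8 smooth muscle genes tested were higher. Of 34 other endothelial genes, 3 were higher in the DS (Pltp, 1.06; Bsg, 0.46; Slc2a1, 0.42), 4 in the Amy, led by the TGF-beta co-receptor Eng (0.48), Ly6e (0.41) and Egfl7 (0.28), and 0 in the LH. These counts lie near the shares of all genes called, 9.28% and 8.41% for the DS and Amy. Fibroblast and meninges genes called were Col6a1 in the DS (0.94) and Igfbp2 and Igf2 in the Amy (0.45 and 0.42).

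**Figure D3:**
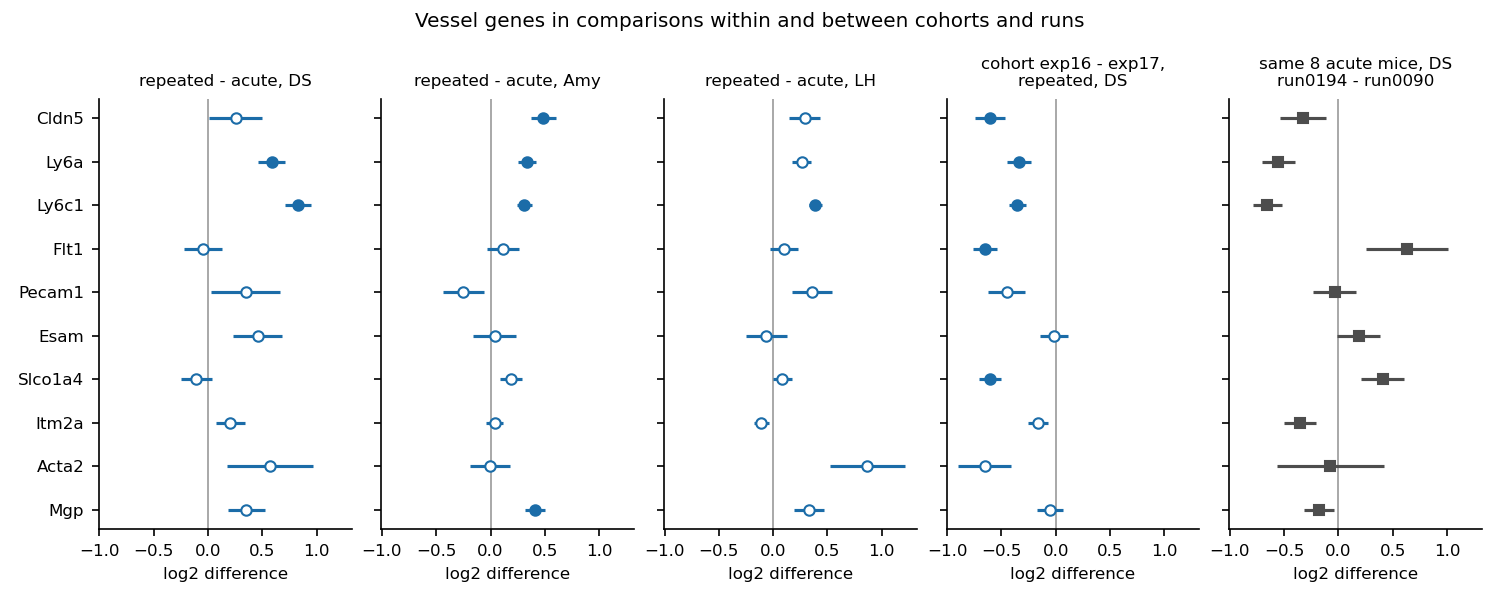
Log2 differences on the x axis for the 10 genes on the y axis. The first 4 panels show edgeR's log2FC with bars of 1 SE, filled where called, and the last panel the mean log2 ratio between 2 libraries of the same 8 mice with bars of 1 SD. Ly6c1 is higher in repeated mice in the first 3 panels, at -0.35 in cohort exp16 against exp17 with the 0 hr mice included, and 0.66 lower in run0194 than in run0090 within mice.

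Challenge mice of the DS were higher than acute mice in Ly6a (log2FC 0.74, SE 0.12, adjusted p = 1.1e-05, edgeR) and Ly6c1 (0.56, SE 0.12, adjusted p = 0.00053, edgeR), 2 of the 10 genes, where 13.1% of genes were called. Ly6a ran from 63.9 to 105 CPM in the 6 challenge mice and did not overlap with acute mice, and Ly6c1 ran from 79.2 to 147 and did. The other 8 genes were not called, Slco1a4 (-0.36, SE 0.15) and Flt1 (-0.26, SE 0.18) being the lowest, and the median was 0.18. Beside them, 4 of 4 blood genes tested were higher in challenge mice (median 0.69) and 5 of 8 oligodendrocyte genes lower (median -0.47). The summed level of the smooth muscle list was higher without overlap (52.5 to 68.8 CPM in acute, 85.9 to 109.7 in challenge mice), and that of the astrocyte list lower (4386 to 4679 and 3765 to 4169). The interferon response list was also higher without overlap (397 to 426 CPM in acute and 435 to 547 in challenge mice), with 1 of 13 genes called, Ifitm3, and so were the other endothelial genes (995 to 1126 and 1161 to 1296), with 2 of 34 called. Their part in these values was not tested. Between challenge and repeated mice 0 of the 10 genes were called (1.67% of all), with a median of -0.23.

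Ly6a and Ly6c1 had the opposite direction in the other DS libraries. There, acute mice came from run0090 and repeated and challenge mice from run0230, so that run and history cannot be told apart. The repeated mice there also included cohort exp16, absent from run0194, so the mice differed as well. Ly6a was -0.31 and Ly6c1 -0.44 on the log2 scale in repeated against acute mice, and Ly6a -0.27, Ly6c1 -0.30, Cldn5 -0.42 and Esam -0.37 in challenge against acute mice. All of these passed the test, but so did 41.7% and 45% of 12918 genes, so that 2 and 4 of the 10 genes are no more than the background. The medians of the 10 genes were 0.028 and -0.22.

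Libraries of the same mouse in 2 runs were compared next. In 8 acute mice, Ly6c1 was lower in run0194 than in run0090 by 0.66 on the log2 scale on average (SD 0.13, lower in 8 of 8), and the spread between mice was that of counting alone (0.13). Ly6a was at -0.55 (SD 0.15) and Itm2a at -0.35 (SD 0.15), each lower in 8 of 8. Flt1 was higher in run0194 by 0.63 (SD 0.38) and Slco1a4 by 0.41 (SD 0.20), each in 8 of 8. Endothelial genes thus differed between these runs in opposite directions in the same animals. Between run0194 and run0230, in 16 repeated and challenge mice, mean ratios were 0.13 for Ly6c1, 0.22 for Ly6a and 0.03 for Slco1a4, and that of Esam was 0.42 (SD 0.50). The ratio of Ly6c1 was 0.31 in the 8 repeated mice, higher in run0194 in 7 of them, and -0.06 in the 8 challenge mice. The SD of the ratio of Cldn5 was 0.62 there, against 0.30 from counting. Each library of the DS matched best to its own mouse in the other run, in 8 of 8 and 16 of 16 pairs.

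Mice of 2 cohorts with repeated cocaine shared run0230 in the DS, with no difference in history. The log2FC of all 10 genes was below 0 in exp16 (n = 9) against exp17 (n = 8), with a median of -0.40 against -0.0098 for all genes, and 5 of the 10 were called lower and 0 higher, where 7.34% of 11778 genes were called. Slco1a4 ran from 25.5 to 62.3 CPM in exp16 (median 36.2) and from 48.4 to 64.7 in exp17 (median 58.5). Flt1 ran from 16.2 to 36.2 CPM (median 25.1) and from 30.7 to 46.7 (median 38.5). The cohorts overlapped for both. The log2FC was -0.65 for Flt1 (SE 0.11, adjusted p = 2.05e-05), -0.61 for Slco1a4 (SE 0.10, adjusted p = 1.19e-05) and -0.61 for Cldn5 (SE 0.14, adjusted p = 0.00137), all by edgeR, and -0.35 and -0.34 for Ly6c1 and Ly6a. DESeq2 did not call Ly6a (adjusted p = 0.241). Acta2 was at -0.66 (SE 0.24, adjusted p = 0.0635, edgeR; 0.0112 without the filter on low counts, which called it), and Esam and Mgp at -0.02 and -0.06. The 2 exp17 mice at 0 hr were among those by which the genes were chosen, so the fit was repeated without the 0 hr mice of both cohorts, an alternative added after these values had been seen. It left 7 mice of exp16 and 6 of exp17, and called 2 of the 10 genes, where 5.72% of 11812 genes were called. These 2 were Flt1 (-0.60, adjusted p = 0.00123, edgeR) and Slco1a4 (-0.53, adjusted p = 0.00147, edgeR), while Cldn5 (-0.43, adjusted p = 0.0736), Ly6c1 (-0.25, adjusted p = 0.0553) and Ly6a (-0.13) lost their calls by edgeR. The median was -0.32, and Mgp was at 0.07.

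Other vessel genes moved with the cohort as well. With all times included, 8 of 32 other endothelial genes were lower in exp16, led by the lipid transfer protein Pltp (-0.92), the adhesion receptor Adgrl4 (-0.62) and Podxl (-0.61). Of 6 fibroblast and meninges genes 4 were lower, with the collagens Col1a2 (-1.18) and Col6a1 (-1.07) at the head. Of 10 pericyte and 5 smooth muscle genes 0 were called. The repeated mice of run0194 and run0255 were all of exp17.

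The last question was whether the genes rose and fell together from mouse to mouse within a group. The slope of each gene on Cldn5 was fitted in each structure, as the change on the log2 scale per log2 unit of Cldn5. History by time point was a term, as were run and cohort where they could be estimated. Equal proportions would give a slope of 1. The median slope of the other 9 genes was 0.09 for the NAc, 0.10 for the Amy, 0.18 for the LCtx, 0.20 for the DS and 0.34 for the LH, against all-gene medians within 0.01 of 0. Leaving out 1 replicate number at a time took the NAc median below 0 at its lowest and lowered that of the DS, with ranges given in the last section. These sizes depended on the reference gene: with Ly6c1 in place of Cldn5, an alternative added after seeing the data, the medians were 0.15 for the NAc, 0.39 for the Amy, 0.78 for the LCtx, 0.38 for the DS and -0.13 for the LH. Of the 9 genes, between 5 (NAc) and 8 (LCtx and LH) had a slope above 0. In the LH 1 was called, Acta2 (1.87, SE 0.31, adjusted p = 0.00137, edgeR; 0.181% of genes called at an adjusted p under 0.05). In the other structures 0 of the 9 were called by edgeR, against 0% of all genes for the DS and LCtx, 0.00771% for the NAc and 0.14% for the Amy, and an unadjusted p under 0.05 was reached by 5 of them for the DS, 4 for the Amy, 3 for the NAc and 2 for the LCtx. With no filter on low counts edgeR called Flt1 in the LCtx (adjusted p = 0.00225), Mgp in the NAc (-0.59, adjusted p = 0.0222) and Mgp in the LH (0.62).

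Slopes differed between the endothelial genes. Those of Flt1 were 1.07 (SE 0.22) in the LCtx, the smallest p-value of 12990 genes there (adjusted p = 0.101, edgeR), 0.61 (SE 0.18) in the NAc and 0.45 (SE 0.14) in the LH. Those of Ly6c1 lay between -0.01 and 0.17 in all 5 structures and those of Slco1a4 between -0.46 and 0.28. Mgp had slopes of 0.63 (SE 0.15) in the LH and -0.59 (SE 0.14) in the NAc. The slope of Acta2 in the LH rested on 2 libraries, 1 acute and 1 repeated mouse at 2 hr, with 37.8 and 76.9 CPM of Acta2 where the other run0255 libraries of this structure had at most 12.3. Without them it was 0.65 (adjusted p = 0.877, edgeR).

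**Figure D4:**
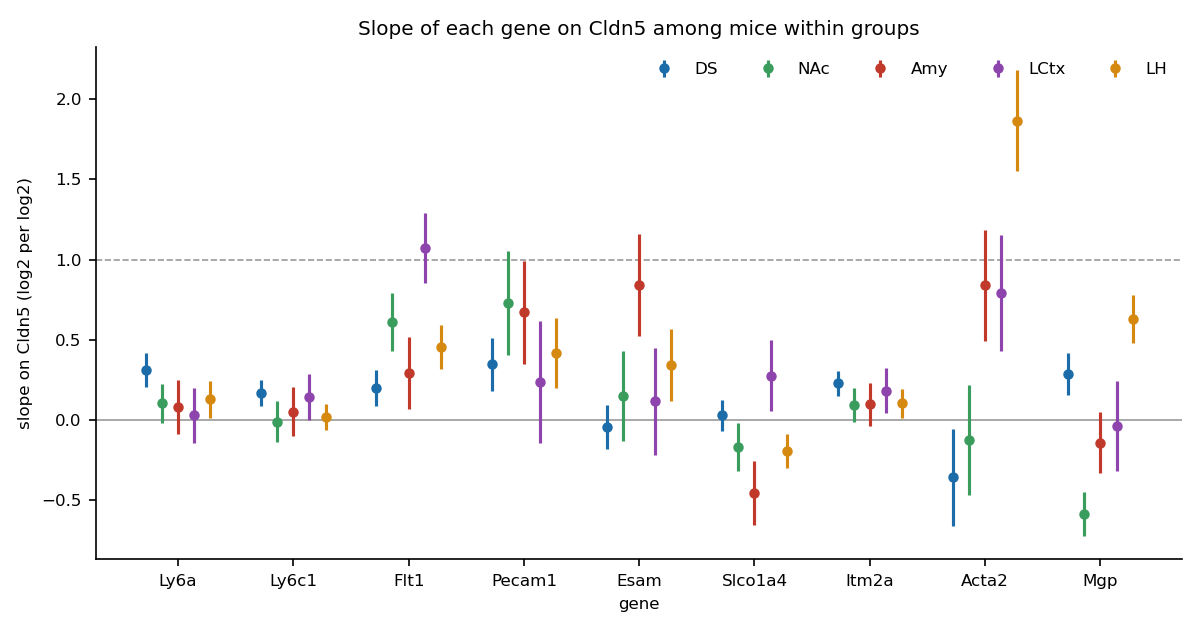
Slope of each of 9 genes on Cldn5 in the 5 structures, in log2 units per log2 unit, with bars of 1 SE. The dashed line marks a slope of 1, which equal proportions would give. Of the 45 points 26 lie between 0 and 0.5, and Acta2 of the LH, at 1.87, is above all others.

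Measurement error in Cldn5 lowers such slopes, and their size is to be read with it. Within groups, log2(CPM + 1) of Cldn5 had an SD of 0.26 in the Amy to 0.47 in the LH, where counting alone would give 0.16 and 0.13. Between 2 libraries of the same DS mouse, the log2 ratio of Cldn5 had an SD of 0.62 for run0194 and run0230, against 0.30 from counting. It was 0.21 for run0194 and run0090 and 0.12 in the 4 mice of other structures, both below counting. The SD within groups of the DS was 0.41. How far error beyond counting lowered the slopes of the DS was not tested. The genes that followed Cldn5 most closely are named for each structure, and whether any kind of gene was frequent among them was not tested. They passed the test in the LH and Amy. In the DS, NAc and LCtx none of them did, with smallest adjusted p of 0.233, 0.0992 and 0.101 by edgeR. In the LH they were Cryab, Acta2, Dnajb1, Tagln, Hsph1, Hba-a1, Tpm2, Hba-a2, Hspa1b and Hspb1, with chaperones, haemoglobin and smooth muscle genes among them. In the Amy they were the chaperones Hsph1, Hspa1b, Hspa5, Pdia4 and Cryab, the activity genes Homer1, Egr1, Npas4 and Nr4a3, and Slc5a3. In the LCtx, Flt1 came first and Slc6a13, a transporter of meningeal cells, was among the first 10, and in the DS none of the first 10 was on a vessel list. In the NAc they were Stip1, Nkrf, Dok3, Polr2i, Cartpt, Hspa8, Hspb1, Cx3cl1, Zc3h7b and Cspg4, a proteoglycan of pericytes that was the 1 vessel gene among them. These are the 10 genes with the largest F among positive slopes in 31 Amy, 23 LH, 26 LCtx, 48 DS and 36 NAc libraries.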

How the data were processed

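RNA was measured by 3′ RNA-seq with unique molecular identifiers in 5 dissected structures. The authors deposited a table of raw counts of deduplicated reads per gene, with no normalization. The submitters' processing notes name STAR, HTSeq and GRCm38 without versions, and the study's methods state that the deepest libraries were down-sampled, although the table still holds a library of 10367769 counts. Lists and genes were chosen with earlier results of these data known.

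Groups came from the sample labels. CPM were counts over the library total. edgeR 4.0.16 in R 4.3.3 (TMM scaling, filterByExpr at a minimum count of 10, quasi-likelihood tests) was fitted to all genes with 1 coefficient per experience and time point, or with the terms named beside a result, and 1 library per mouse. DESeq2 1.42.0 was an alternative. Genes were called at a Benjamini-Hochberg adjusted p under 0.05 and a fold change over 1.2, and slopes on log2(CPM + 1) of Cldn5 at the adjusted p alone. The 10 genes were all named, with the 3 largest changes called in each vessel list and the 10 genes with the largest F among positive slopes. Abcb1a, Slc2a1 and Crip1 fell outside this rule and were named after their values were seen. Tests were checked on simulated data: in the DS at 2 and 4 hr against 1 hr, 95% of 100 genes changed 1.5-fold were recovered, and in the Amy 82%. The changed genes had mean counts over 100. Cldn5, Flt1, Esam, Pecam1 and Acta2 had median counts of 86 or fewer, so these shares do not cover them. The simulation changed 200 genes, whereas edgeR called 15 in the Amy. Replicate numbers of the labels did not pair mice, since the mean correlation of deviations between libraries with the same number was at most 0.0255 in any structure. Libraries with the same mouse name were taken as the same animal. Where nothing says that 2 samples differ in origin, p-values measure only the spread between these samples. Promoters came from RefSeq and gene overlaps from GENCODE M21. Figures were drawn with matplotlib 3.10.9.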

Additional observations from a re-analysis of the deposited data

Results flagged for a closer look

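Of 210 groups of 4 to 10 mice examined over the 10 genes, 12 held a mouse whose gap to the nearest other was large for the range of its group by Dixon's 95% criterion. Chance gives about 1 in 20 groups, so the number is about what chance gives.

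Among mural genes, Acta2 was at 57.3 CPM in the 1st naive DS mouse, and at 1.46 CPM in the lowest NAc mouse 1 hr after challenge. Mgp was at 229 CPM in the highest LCtx mouse 1 hr after challenge, at 33.9 CPM in the highest naive NAc mouse, at 39.3 CPM in the highest DS mouse 2 hr after acute cocaine and at 25.6 CPM in the lowest of 5 DS mice 2 hr after repeated cocaine. Among endothelial genes, Cldn5 was at 35.0 CPM in the highest of 5 DS mice 2 hr after repeated cocaine. Ly6c1 was at 129 CPM in the highest DS mouse 2 hr after challenge, and at 128 CPM in the highest LCtx mouse 1 hr after challenge, the mouse with the high Mgp. Flt1 was at 21.2 CPM in the lowest DS mouse 1 hr after challenge. Esam was at 16.8 CPM in the highest DS mouse and at 9.10 CPM in the highest NAc mouse 1 hr after acute cocaine.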

How the results depend on the processing

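The directions of the DS comparison in one run differed in the other DS libraries, which also held further mice and, among repeated mice, cohort exp16. With the other runs the median log2FC of the 10 genes was 0.028 for repeated and -0.22 for challenge against acute mice. Ly6a went to -0.31 and Ly6c1 to -0.44 in repeated mice, and Ly6a to -0.27, Ly6c1 to -0.30, Cldn5 to -0.42 and Esam to -0.37 in challenge mice. In the Amy the median was 0.27 with 0 hr mice included and -0.028 with Cldn5 as a covariate. Acta2 of the acute DS was at 0.30 without the 1st naive mouse, which was chosen after seeing the data. Between the cohorts of repeated mice, Cldn5, Ly6a and Ly6c1 lost their calls without the 0 hr mice, also added after seeing the data, and the median was -0.32. The cause of these changes was not tested.

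Slopes depended on the reference gene. With Ly6c1 as the reference, added after seeing the data, medians were 0.38 in the DS, 0.39 in the Amy, 0.78 in the LCtx and -0.13 in the LH, with Mgp of the LCtx at 1.66 and Acta2 of the LH at -1.72. With Flt1 as the reference the LH median was 0.54.

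Leaving out 1 replicate number at a time gave the following ranges. Over all times after acute cocaine, the median was 0.14 to 0.35 in the Amy and -0.072 to 0.44 in the LCtx, Acta2 of the DS was at -1.86 to 0.31, Ly6c1 of the LCtx at -0.20 to 0.031 and Slco1a4 of the LCtx at -0.081 to 0.023. After repeated cocaine the median was -0.35 to -0.076 in the Amy and -0.41 to -0.11 in the LCtx. The median slope was 0.080 to 0.22 in the DS and -0.070 to 0.093 in the NAc. At 2 and 4 hr against 1 hr, the median was -0.089 to 0.22 in the Amy after challenge and 0.29 to 0.65 in the LCtx after acute cocaine. The median difference from acute cocaine was 0.14 to 0.47 for Amy challenge, 0.41 to 1.10 for LCtx repeated and 0.14 to 0.61 for LCtx challenge mice. The LH could not be fitted without replicate 1 or 2 in these tests.

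With the replicate block, the median of the DS comparison of repeated and acute mice was 0.37. Ly6a there (0.60, adjusted p = 0.147, edgeR) and Ly6c1 in challenge mice (0.60, adjusted p = 0.0743, edgeR) lost their calls. In run0194, challenge and repeated libraries shared no replicate number, and acute ones shared only some with each. The block thus overlapped with history, and calls lost under it cannot be read as a lack of difference. Of all genes, 240 in place of 1141 were called for repeated and 451 in place of 1612 for challenge mice. At 2 and 4 hr against 1 hr after acute cocaine, Ly6c1 of the LCtx lost its call (adjusted p = 0.0537, edgeR), while Slco1a4 of the DS (0.0193) and Amy (0.0293) and Ly6c1 of the LH (0.0378) gained one. The numbers do not pair the mice.

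Numbers of all genes called moved by over 1.5 times in other places. With the other runs they were 5383 and 5807 in the DS. The Amy comparison called 1070 genes and 444 with Cldn5 as a covariate, and the LH comparison 389 and 231 with DESeq2. The acute DS time course called 339 genes, 571 with no filter on low counts and 169 without the 1st naive mouse. The acute time course of the LCtx called 39 and 134 with no filter, that of the NAc 24 and 61 with DESeq2, and that of the Amy 11 and 36 with DESeq2. With no filter on low counts, the medians of the 10 genes moved by less than the spread between mice (for slopes, the median SE), but more genes were called, as given beside most comparisons. In the acute time courses, calls were also added for Slco1a4 of the DS and Amy and Ly6a and Mgp of the LCtx. Of all genes, 301 in place of 12 were called in the NAc time course after challenge, 63 in place of 24 there after acute cocaine and 48 in place of 7 in the LH after acute cocaine. At 2 and 4 hr against 1 hr after acute cocaine, 38 in place of 15 were called for the Amy, 77 in place of 18 for the LCtx, 51 in place of 15 for the NAc and 17 in place of 5 for the LH. For the difference between acute and challenge cocaine, 15 in place of 0 were called in the DS, 11 in place of 0 in the Amy and 38 in place of 0 in the LCtx. For slopes, 32 in place of 0 were called in the DS and 72 in place of 0 in the LCtx. The cause was not tested. Low counts of Acta2, Pecam1 and Esam limit the precision of their values.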
